A study of Mus musculus with 8 samples.

Results

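The GIMAP family (GTPases of immunity-associated proteins) was described here in sorted mouse thymocytes, as the 8 genes that the tables list as Gimap1, Gimap3, Gimap4, Gimap5, Gimap6, Gimap7, Gimap8 and Gimap9. These members, found by gene symbol, are 8 of 55359 genes listed. RNA was sequenced from 8 samples of thymocytes of mice aged 5 weeks, sorted as double positive for CD4 and CD8 (DP) and as TCRb-/lo-int, that is with no, low or intermediate T cell receptor beta. Each of them carried LSL-Sting1-N153S, an allele in which a stop cassette flanked by loxP sites precedes STING with the N153S gain-of-function substitution. The 4 controls (replicates 1 to 4) had the genotype LSL-Sting1-N153S/+ with no Cre. In the other 4 (LSL-Sting1-N153S;Lck-cre, replicates 5 to 8), Cre driven by the Lck promoter, active from early T cell stages, can excise the cassette. Replicates 1 and 5 were female and the remaining 3 of each group male. The labels do not say that samples were separate animals, and p-values then measure only how these samples vary, which may be technical.

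GIMAPs are GTP-binding proteins whose fold is related to that of the septins. They are made mostly in lymphocytes, where several sit on the membranes of organelles such as lysosomes, mitochondria and the Golgi, and they are known for their part in the survival of T cells and B cells. GIMAP5 is a lysosomal member whose loss in mice depletes peripheral T cells, GIMAP1 is needed to form mature T and B cells, and GIMAP6 binds the autophagy protein GABARAPL2. GIMAP3 is the closest relative of GIMAP5, and GIMAP4 has been tied to the pace of T cell death.

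As a check of the labels, Sting1 lay at 11.6 to 15.3 FPKM (fragments mapped per unit of gene length and of sequencing depth) in the controls and at 220.9, 85.4, 129.6 and 232.2 FPKM in Lck-cre replicates 5 to 8. All 10 DP markers examined were expressed. Their summed level was 5524 to 5909 FPKM in the controls and 4293 to 5532 with Lck-cre. By limma 1 of the 10 rose (Ptcra) and 4 fell (Cd4, Rag1, Rag2 and Themis), against 25.8% of all genes called in either direction. Mean Rag1 went from 802.4 to 538.0 FPKM and mean Ptcra from 29.9 to 42.4, so some DP genes also differed between the groups compared here. The tables give no read counts, so depth is unknown.

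Within the family, transcript levels spanned more than 2 orders of magnitude in these DP thymocytes. Gimap6, Gimap1, Gimap9 and Gimap8 together made up 94.9% to 96.2% of the summed GIMAP FPKM in every sample, and Gimap5, Gimap7, Gimap3 and Gimap4 made up the rest. Over all 8 samples the mean was 113.7 FPKM for Gimap6, 101.3 for Gimap1, 79.2 for Gimap9, 39.7 for Gimap8, 9.35 for Gimap5, 3.55 for Gimap7, 1.43 for Gimap3 and 0.837 for Gimap4. The mean of Gimap6 exceeded that of 94.7% of genes with a mean of at least 1 FPKM, and that of Gimap5 exceeded 42.3% of them.

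The order of levels was nearly the same in every sample. Gimap6 exceeded Gimap1 in 7 of 8 samples, and the ranges of these neighbours in the order overlapped. Gimap1 exceeded Gimap9 and Gimap3 exceeded Gimap4 in 8 of 8 samples, but their ranges overlapped too. Gimap9 exceeded Gimap8 by 1.5 to 2.36 times, Gimap8 exceeded Gimap5 by 3.5 to 5.12 times, Gimap5 exceeded Gimap7 by 1.94 to 2.97 times, and Gimap7 exceeded Gimap3 by 1.97 to 3.18 times, with no overlap of ranges. Between the ends of the order, Gimap6 stood 96.8 to 223.1 times above Gimap4.

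**Figure D1:**
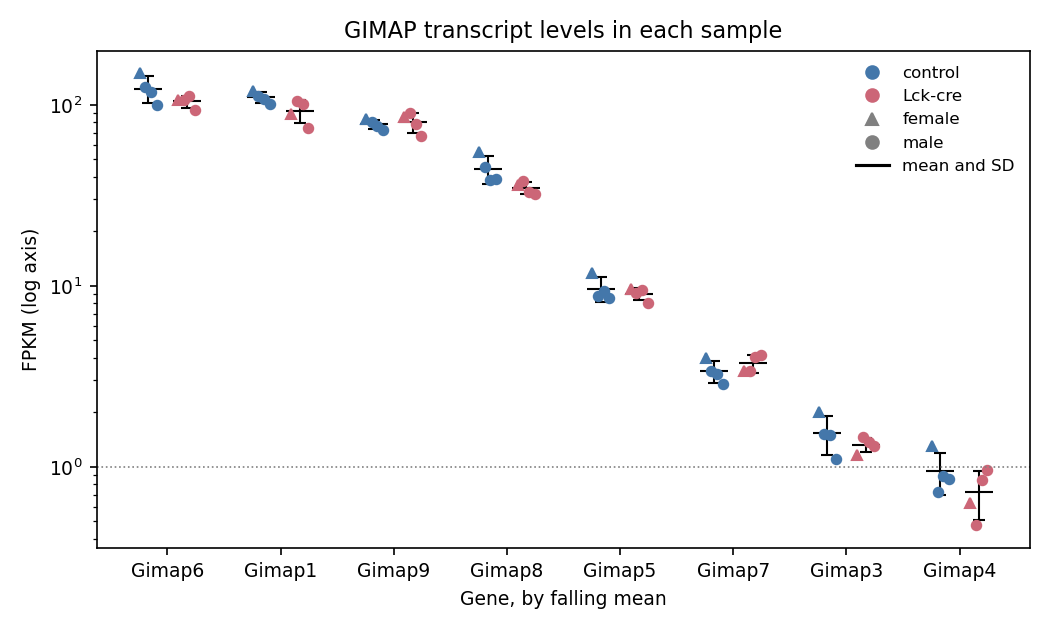
FPKM of each GIMAP gene on a log axis, for the 4 control (blue) and 4 Lck-cre (red) samples, with triangles for females, circles for males, black bars for the mean and SD, and a dotted line at 1 FPKM. Levels run from 93.2 to 149.2 FPKM for Gimap6 down to 0.476 to 1.3 FPKM for Gimap4, and in the Gimap8 column alone every control lies above every Lck-cre sample.

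The 8 genes lie side by side on chromosome 6, within 123.6 kb from 48624168 to 48747785 as the files give positions. The files name no build; the GRCm38 starts and ends of all 8 lie 23066 bases further on. In order along the chromosome they are Gimap8, Gimap9, Gimap4, Gimap6, Gimap7, Gimap1, Gimap5 and Gimap3, of which Gimap6 and Gimap3 are on the minus strand. Gimap4, the lowest of the 8, lies between Gimap9 and Gimap6, which are among the 3 highest. In GENCODE M21 all 8 are protein coding, and the longest coding sequence is 2067 bases in Gimap8, which encodes a protein with several GTPase domains, against 876 to 987 bases in the other 7.

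**Figure D2:**
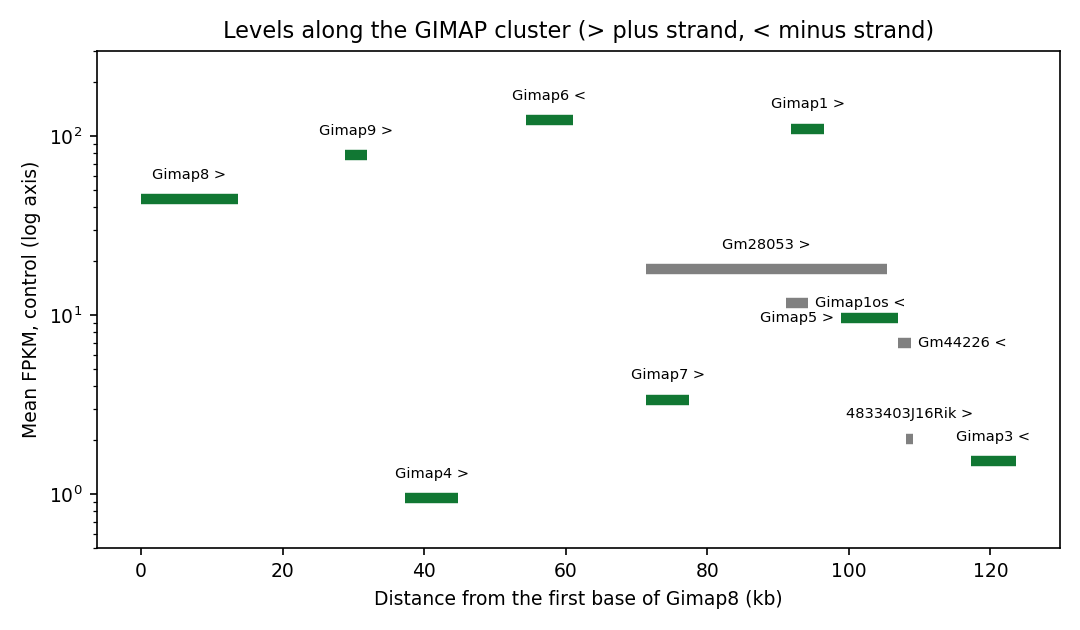
Position of the 8 GIMAP genes (green) and of the 4 other tested genes inside the cluster (grey), as distance in kb from the first base of Gimap8, against the mean FPKM of the 4 control samples on a log axis. High and low members lie among each other along the 123.6 kb, and Gimap4 at 0.945 FPKM lies between Gimap9 at 78.3 and Gimap6 at 123.

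Members differed in how far their reads could be told apart. The coding sequences of Gimap3 and Gimap5 were identical at 89.8% of aligned bases, against 54.6% to 65.1% for the other 27 pairs. Of the distinct runs of 50 bases in GENCODE transcripts, 7.52% of those of Gimap3 and 4.53% of those of Gimap5 occurred in both genes, and the other 6 members shared none with another member. The longest coding run that the 2 genes share is 140 bases, shown because a read inside it cannot be placed in either gene; in GRCm38 it lies in an exon of Gimap3 at chr6:48765681-48765820 on the minus strand and in an exon of Gimap5 at chr6:48752684-48752823 on the plus strand.
Gimap3 and Gimap5: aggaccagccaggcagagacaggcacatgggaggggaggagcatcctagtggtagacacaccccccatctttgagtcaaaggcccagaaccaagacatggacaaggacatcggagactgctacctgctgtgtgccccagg

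Overlapping gene models touch Gimap7, Gimap1 and again Gimap5. Gm28053, a gene of transcripts that join exons across the cluster, shares 3.48% of the exonic bases of Gimap7, 6.44% of those of Gimap1 and 3.69% of those of Gimap5 in GENCODE M21, which together are 43.7% of its own 989. It lay at 18.0 ± 4.48 FPKM in the controls and 16.9 ± 2.36 with Lck-cre (SD, n = 4 each; log2 change -0.07, adjusted p = 0.773 by limma). The antisense gene Gimap1os overlaps 1107 of the 3073 exonic bases of Gimap1. No source used here states whether the libraries keep strand. If they do not, reads of Gimap1 and Gimap1os cannot be told apart there. Levels of Gimap1, Gimap5 and Gimap7 thus carry uncertainty from overlapping gene models, and those of Gimap3 and Gimap5 from shared sequence.

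The 250 bases before the start of each gene were taken from RefSeq (GRCm38.p6), which held all 8 members in 9 windows, since Gimap8 has 2 starts. They are shown for the 2 highest members, for the lowest member and for Gimap8, described next. Windows were searched on both strands for 10 motifs, and the matches are in capitals; in the windows shown no matches overlapped each other.
Gimap6, chr6:48708245-48708494, minus strand: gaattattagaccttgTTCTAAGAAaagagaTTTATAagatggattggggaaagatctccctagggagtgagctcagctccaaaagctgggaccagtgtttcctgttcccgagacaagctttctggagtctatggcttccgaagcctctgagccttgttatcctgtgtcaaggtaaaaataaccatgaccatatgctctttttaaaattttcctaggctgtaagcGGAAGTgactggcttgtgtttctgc
Gimap1, chr6:48738797-48739046, plus strand: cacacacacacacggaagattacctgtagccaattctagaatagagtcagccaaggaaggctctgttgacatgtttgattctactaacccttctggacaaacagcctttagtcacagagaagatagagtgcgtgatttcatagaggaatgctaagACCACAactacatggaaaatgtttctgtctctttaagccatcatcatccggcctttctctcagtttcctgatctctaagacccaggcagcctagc
Gimap8, chr6:48647111-48647360, plus strand: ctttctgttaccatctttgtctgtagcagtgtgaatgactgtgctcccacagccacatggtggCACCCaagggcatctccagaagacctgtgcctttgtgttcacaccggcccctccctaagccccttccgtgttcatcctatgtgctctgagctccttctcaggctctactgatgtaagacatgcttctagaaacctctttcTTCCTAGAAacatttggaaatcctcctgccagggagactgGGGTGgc
Gimap4, chr6:48684328-48684577, plus strand: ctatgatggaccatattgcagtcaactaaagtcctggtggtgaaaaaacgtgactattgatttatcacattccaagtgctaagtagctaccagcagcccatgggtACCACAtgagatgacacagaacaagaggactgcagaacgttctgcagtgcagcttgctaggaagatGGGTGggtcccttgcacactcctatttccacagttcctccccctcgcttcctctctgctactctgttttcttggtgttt

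No motif was common to all 8 members. The ETS motif GGAAGT occurred in Gimap5 and Gimap6, the latter 25 bases before the start, and in 19.7% of all 32851 windows. The RUNX motif TGTGGT occurred in Gimap1, Gimap4 and Gimap7 and in 14% of all windows, and the GAS motif TTCNNNGAA, which STAT proteins bind, in Gimap6 and Gimap8 and in 7.02%. The CACCC box CACCC, a motif of KLF proteins, occurred in Gimap3, Gimap4, Gimap5, Gimap8 and Gimap9 and in 52.0% of all windows, and the GC box GGGCGG in Gimap7 and Gimap9 and in 32.7%. The FOXO motif TGTTTAC occurred in Gimap3 (3.17% of all windows) and the TATA motif TATAAA in Gimap6, 219 bases before the start (12.4%). The interferon-stimulated response element (2.98% of all windows), the E-box CAGCTG (13%) and the TCF motif ATCAAAG (3.21%) were not found in the 9 windows. These are matches of letters and show no binding.

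The comparison of Lck-cre with control samples asked whether GIMAP transcripts differed once Cre was present and the mutant STING could be expressed. All samples with Cre also carried the mutant allele and had more Sting1 RNA. Effects of Cre, of the substitution and of the Sting1 level therefore cannot be told apart. Gimap8 fell, and no other member passed the test. Gimap1 and Gimap6, the most abundant members, had means 16% and 15.1% lower in Lck-cre without passing, and Gimap9, Gimap5, Gimap7 and Gimap3 overlapped widely between the groups. Gimap4 lay below the minimum for testing. Thus by limma 1 of 7 tested members fell and 0 rose, or 14.3%, against 25.8% of 12337 genes called in all (15.4% higher and 10.4% lower in Lck-cre). At an unadjusted p under 0.05, 2 members were lower (Gimap1 and Gimap8) and 0 higher, or 2 of 7 against 41.4% of all genes in either direction. The median log2 change was -0.14 over the 7 tested members and 0.012 over all genes tested. FPKM sums were higher in every Lck-cre sample than in any control, so the balance of changes depends on the scaling. With TPM in place of FPKM, the balance over all genes turned from 1901 higher and 1279 lower to 1300 and 2067. Gimap1, Gimap6 and Gimap8 were then called lower (adjusted p of 0.0438, 0.0472 and 0.0186 by limma).

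Gimap8 (ENSMUSG00000064262.8, chromosome 6, 48624168 to 48637809 in the files) lay at 55.2, 45.2, 38.4 and 39.1 FPKM in control replicates 1 to 4 and at 36.2, 38.1, 33.1 and 32.0 FPKM in Lck-cre replicates 5 to 8. The female control stood highest, and the groups did not overlap, by 0.34 FPKM between control replicate 3 and Lck-cre replicate 6; the same held, in either direction, for 29.4% of all genes tested, and with Lck-cre lower for 12.3%. The mean fell from 44.5 ± 7.77 to 34.9 ± 2.8 FPKM (SD, n = 4 each), a ratio of 0.783. By limma the log2 change was -0.34, with SE 0.09, a 95% interval of -0.55 to -0.13 and adjusted p = 0.0305, and an exact permutation test (two-sided, on mean FPKM) gave p = 0.0286, the lowest value possible with 2 groups of 4. Within the females the ratio of Lck-cre to control was 0.656, and between the means of the males it was 0.841. In bulk RNA, fewer cells with a transcript and less of it per cell cannot be told apart.

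The call of Gimap8 depended on which samples were included. It ended without control replicates 1 or 2 (adjusted p of 0.127 and 0.0903), without Lck-cre replicates 5, 7 or 8 (0.127, 0.0692 and 0.0672), in males only (0.127) and with no filter on low genes (0.0954).

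Gimap1 (ENSMUSG00000090019.6, 48715988 to 48720729), which the controls held at 119.6, 112.3, 107.2 and 101.3 FPKM, lay at 89.5, 104.5, 101.2 and 74.8 in the Lck-cre samples. Lck-cre replicates 5, 7 and 8 lay below every control, while replicate 6 lay above control replicate 4. The means were 110.1 ± 7.77 and 92.5 ± 13.4 FPKM, with a log2 change of -0.26 (SE 0.11, interval -0.5 to -0.02, adjusted p = 0.103 by limma). Without Lck-cre replicate 6 the change was -0.33 and passed (adjusted p = 0.0427). Gimap1os, the antisense gene, lay at 11.7 ± 1.82 and 9.02 ± 1.71 FPKM (log2 change -0.37, SE 0.15, adjusted p = 0.0955).

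Gimap6 (ENSMUSG00000047867.12, 48678516 to 48685159), the member that binds GABARAPL2, lay at 149.2, 124.9, 117.8 and 100.1 FPKM in the controls and at 106.1, 106.2, 112.3 and 93.2 in the Lck-cre samples. The 4 Lck-cre values lay closer together than the 4 control values, and the groups overlapped through control replicate 4. The log2 change was -0.22 (SE 0.1, interval -0.45 to 0.00, adjusted p = 0.127 by limma). Gimap9 (ENSMUSG00000051124.7, 48653063 to 48656048) lay at 83.0, 80.7, 76.5 and 73.0 FPKM in the controls and at 85.1, 89.8, 78.2 and 67.0 in the Lck-cre samples. Its Lck-cre values lay on both sides of the control range, with a log2 change of 0.02 (SE 0.09, adjusted p = 0.857), and the interval of -0.18 to 0.22 holds folds from 0.886 to 1.17.

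Gimap5 (ENSMUSG00000043505.9, 48723131 to 48731144), the lysosomal member, lay at 11.8, 8.82, 9.42 and 8.53 FPKM in the controls and at 9.63, 9.15, 9.44 and 8.03 in the Lck-cre samples. Apart from control replicate 1, all 7 values fell between 8.03 and 9.63. The log2 change was -0.08 (SE 0.08, adjusted p = 0.525 by limma), and its interval of -0.27 to 0.12 holds folds from 0.831 to 1.08. Gimap3 (ENSMUSG00000039264.10, 48741398 to 48747785), its closest relative, lay at 2.01, 1.51, 1.5 and 1.1 FPKM in the controls and 1.17, 1.46, 1.37 and 1.3 in the Lck-cre samples. The Lck-cre values lay inside the control range (log2 change -0.14, SE 0.14, adjusted p = 0.499), and without control replicate 1 the change was 0.01.

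Gimap7 (ENSMUSG00000043931.11, 48695555 to 48701570), with Gimap9 1 of 2 members whose mean was greater in Lck-cre, lay at 3.97, 3.4, 3.25 and 2.87 FPKM in the controls and at 3.38, 3.37, 4.06 and 4.14 in the Lck-cre samples. Lck-cre replicates 7 and 8 lay above every control, and replicates 5 and 6 lay among them. The ratio of means was 1.11, with a log2 change of 0.13 (SE 0.12, interval -0.13 to 0.4, adjusted p = 0.415 by limma). Gimap4 (ENSMUSG00000054435.17, 48661483 to 48668994) reached 1 FPKM in 1 of 8 samples, control replicate 1, and so was not tested. It lay at 1.3, 0.73, 0.888 and 0.86 FPKM in the controls and at 0.633, 0.476, 0.841 and 0.963 in the Lck-cre samples, which overlapped (deposited coverage of 3.66 to 9.11). In the fit with no filter its log2 change was -0.24 (SE 0.18, adjusted p = 0.48), which on log2(FPKM + 0.5) understates changes at so low a level.

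**Figure D3:**
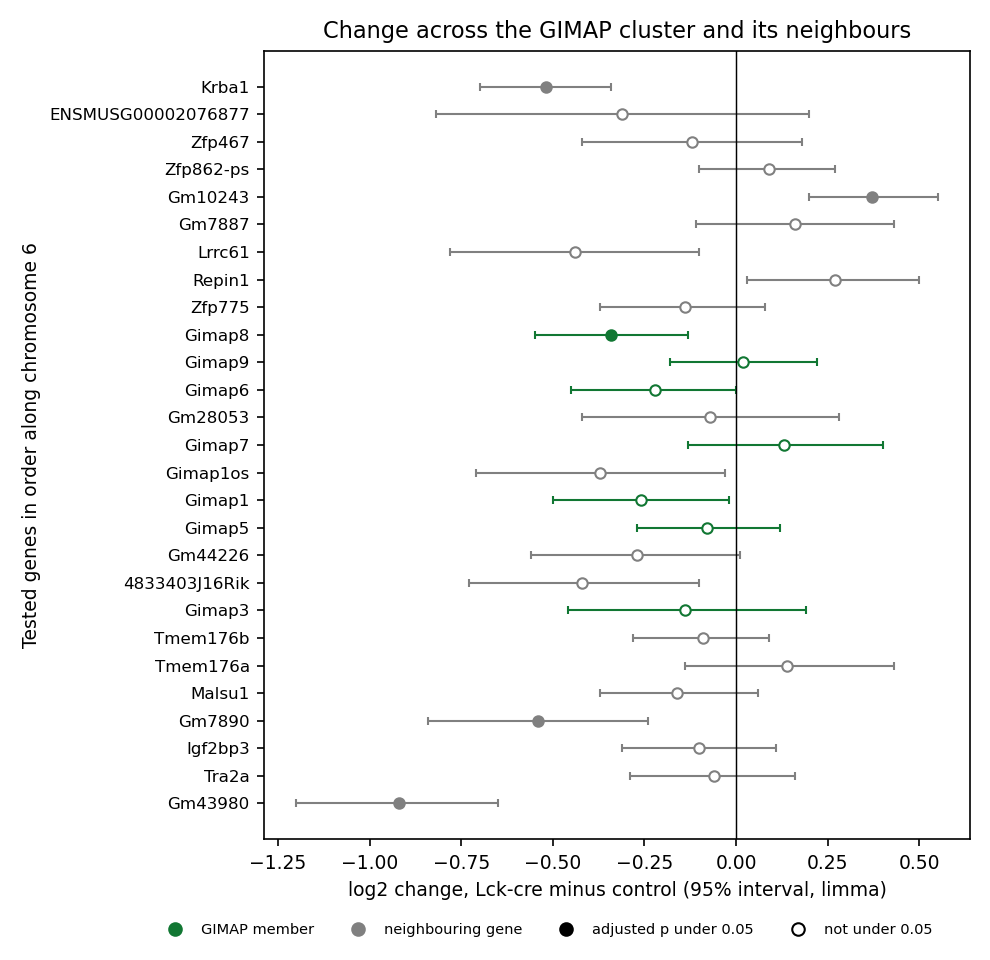
Log2 change between Lck-cre and control samples with its 95% interval by limma, for the 7 tested GIMAP genes (green) and the 20 tested neighbours (grey) in chromosome order; filled points passed an adjusted p of 0.05. Gimap8 at -0.34 is the filled green point, and the interval of Gimap9 is centred near 0.

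Part of the spread between samples was shared by the members. In the controls, replicate 1, the female, was highest for 8 of 8 members, while it was highest in 31% of all genes tested. Its level was 1.08 times the mean of the other 3 controls for Gimap9 and 1.58 times for Gimap4. Control replicate 4 was the lowest control for 6 of 8 members (30.6% of all genes), and Lck-cre replicate 8 the lowest Lck-cre sample for 5 of 8 (31.8%), all but Gimap3, Gimap4 and Gimap7. Lck-cre replicate 8 also had the highest Sting1 level, at 232.2 FPKM. Lck-cre replicate 5, with Sting1 at 220.9 FPKM, was the lowest Lck-cre sample for Gimap3 only and the highest for Gimap5 (9.63 FPKM). Lck-cre replicate 6 had the lowest Sting1 level of its group, at 85.4 FPKM. It was the highest Lck-cre sample for Gimap1, Gimap3, Gimap8 and Gimap9 and the lowest for Gimap4 and Gimap7. Whether GIMAP levels follow Sting1 was not tested. The fitted difference between female and male samples was above 0 in 7 of 7 tested members, with adjusted p = 0.999 for each by limma, so it did not pass the test (smallest unadjusted p = 0.0322, for Gimap5).

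As a description over 8 samples, the deviations of each member from its group mean correlated positively in 25 of 28 pairs, with a median Pearson r of 0.61. The closest pairs were Gimap5 with Gimap6 (0.89), Gimap3 with Gimap6 (0.87) and Gimap1 with Gimap9 (0.85), and the lowest was Gimap4 with Gimap9 (-0.51). These values share the scaling of each library, and control replicate 1 lies high in all of them. The same correlations over pairs of other genes were not computed. The sum over the family was 426, 377.5, 355 and 326.8 FPKM in control replicates 1 to 4 and 331.7, 353.1, 340.5 and 281.4 in Lck-cre replicates 5 to 8, so the groups overlapped.

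**Figure D4:**
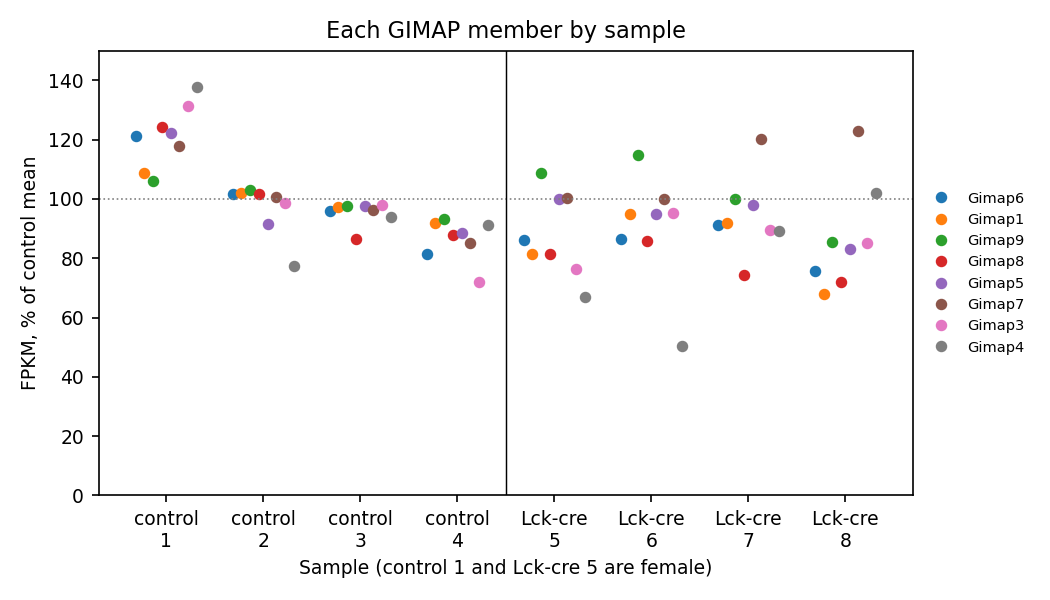
FPKM of each GIMAP gene in each sample as a percentage of its own control mean (dotted line at 100), with controls left and Lck-cre samples right of the line. In control replicate 1 all 8 genes lie above 100, and in Lck-cre replicate 8 Gimap7 lies high while Gimap1, Gimap6 and Gimap8 lie low.

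Ratios between members in the same sample do not depend on how samples were scaled. Of 28 pairs, 4 had ratios that did not overlap between groups, and these involved Gimap9 or Gimap7. The same count over pairs of other genes was not made. Gimap8 stood at 0.665, 0.56, 0.503 and 0.536 of Gimap9 in the controls and at 0.426, 0.424, 0.423 and 0.478 in the Lck-cre samples. Gimap1 stood at 1.39 to 1.44 times Gimap9 in the controls and at 1.05 to 1.29 times with Lck-cre. Gimap6 stood at 34.9 to 37.6 times Gimap7 in the controls and at 22.5 to 31.6 times with Lck-cre, and Gimap7 at 0.0718 to 0.0845 and 0.0883 to 0.129 of Gimap8. Each of the 4 gave p = 0.0286 in an exact two-sided permutation test, the smallest possible. Adjusted over the 28 pairs by Benjamini-Hochberg the lowest value was 0.178, so no ratio passed. With that floor, most of the 28 pairs would have had to reach it for any to pass, so this test cannot decide whether single ratios differ. As shares of the summed FPKM, Gimap9 took 19.5% to 22.3% in the controls and 23.0% to 25.7% with Lck-cre, and Gimap7 took 0.878% to 0.931% and 0.953% to 1.47%. The shares were not tested, and a share also moves with the other members. Gimap9 itself had a log2 change of 0.02.

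**Figure D5:**
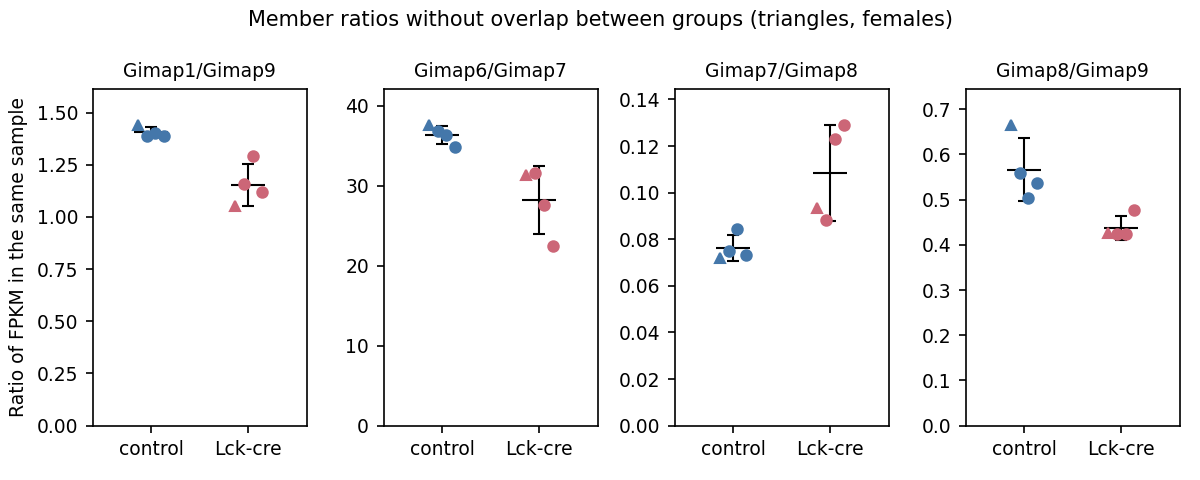
Ratio of FPKM between 2 GIMAP genes in the same sample, for the 4 of 28 pairs whose control (blue) and Lck-cre (red) values did not overlap; triangles are females, bars the mean and SD. Gimap1/Gimap9, Gimap6/Gimap7 and Gimap8/Gimap9 are lower and Gimap7/Gimap8 higher in all 4 Lck-cre samples.

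Other genes of the same stretch of chromosome 6 were read in the same fit. Of 52 further genes that start within 500 kb of the cluster, 20 were tested, of which 1 rose and 3 fell. Over all genes tested 25.8% were called. The median log2 change was -0.13 over the 20 tested neighbours and 0.012 over all genes tested. Gm10243 rose from 31.7 ± 2.4 to 41.1 ± 2.98 FPKM, and Krba1 fell from 26.0 ± 1.72 to 18.0 ± 1.59 FPKM (SD, n = 4 each; log2 changes of 0.37 and -0.52, adjusted p of 0.0131 and 0.0075 by limma). Gm43980 and Gm7890 fell by 0.92 and 0.54 on the log2 scale (adjusted p of 0.00723 and 0.0213). The 4 tested genes inside the cluster, Gm28053, Gimap1os, Gm44226 and 4833403J16Rik, had log2 changes of -0.07, -0.37, -0.27 and -0.42 and did not pass (adjusted p of 0.773, 0.0955, 0.131 and 0.0557). The nearest tested genes outside it, Zfp775 on the Gimap8 side and Tmem176b on the Gimap3 side, had changes of -0.14 and -0.09 (adjusted p of 0.306 and 0.431). The other 10 tested neighbours, ENSMUSG00002076877, Zfp467, Zfp862-ps, Gm7887, Lrrc61, Repin1, Tmem176a, Malsu1, Igf2bp3 and Tra2a, did not pass either, with log2 changes from -0.44 (Lrrc61, whose groups did not overlap, adjusted p = 0.0564) to 0.27 (Repin1, adjusted p = 0.0836).

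Lists of related genes were read in the same fit, in which 25.8% of all genes were called and 41.4% had an unadjusted p under 0.05. Of septins, the cytoskeletal GTPases of related fold, 1 of 8 tested fell and 0 rose by limma (3 lower and 1 higher at an unadjusted p under 0.05; median log2 change -0.1): Septin9 fell from 149.3 ± 7.02 to 123.6 ± 11.5 FPKM (adjusted p = 0.0339). Of the interferon-induced GTPases, which include guanylate-binding proteins, 6 of 13 rose and 0 fell by limma (9 and 1 unadjusted; median 0.42). Gbp3 rose from 1.26 ± 0.203 to 2.73 ± 0.998 FPKM without overlap, and Ifi47 rose from 23.7 ± 2.55 to 33.9 ± 5.19 FPKM with overlapping groups (SD, n = 4 each; adjusted p of 0.0211 and 0.0128).

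Of the GABARAP and LC3 genes of autophagy with the GSK3 kinases, 1 of 7 fell and 0 rose by limma (2 lower and 0 higher unadjusted; median 0.02), and the 1 was Gsk3b, a kinase restrained by GIMAP5 in T cells, from 27.9 ± 2.47 to 22.3 ± 1.03 FPKM (adjusted p = 0.0201). Of the BCL2 family, regulators of cell death, 4 of 10 rose and 0 fell by limma (4 and 1 unadjusted; median 0.13). Bax, a pore-forming effector, rose from 50.9 ± 3.13 to 68.2 ± 4.09 FPKM, (SD, n = 4 each), and Bid, its activator, rose by 0.4 on the log2 scale (adjusted p of 0.00817 and 0.0105).

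GIMAP transcripts are also made by mature T cells, B cells, natural killer cells and endothelium, so markers of these were read beside them. Over all genes tested, 25.8% were called and 41.4% had an unadjusted p under 0.05 by limma, in either direction. Of genes of mature T cells and egress, 4 of 19 rose and 6 fell by limma (4 and 9 unadjusted; median -0.27): Itgb7, an integrin chain, rose by 0.96 and the surface antigen Ly6a by 2.08 on the log2 scale, and Klf3, a transcription factor, fell by 0.5 and Ms4a6b by 0.43. S1pr1, the egress receptor of mature single-positive T cells, was at most 0.0415 FPKM in any sample. B cell markers summed to 12.5 to 17.2 and 8.19 to 15.8 FPKM, of which Cd79b took nearly all, while Ms4a1 and Pax5 were at or near 0. Natural killer markers summed to 18.4 to 29.2 and 36.5 to 90.3 FPKM through Gzma, a granzyme, which rose by 1.57 on the log2 scale (adjusted p = 0.0075 by limma). The other tested natural killer marker, the perforin gene Prf1, went from 1.99 ± 0.404 to 1.11 ± 0.511 FPKM without passing (adjusted p = 0.0692), and Ncr1 and Gzmb were at 0 in all 8 samples. Endothelial markers summed to 44.9 to 53.7 and 52.2 to 59.6 FPKM, mostly Pecam1. Of the 2 endothelial markers tested, Egfl7 rose from 1.01 ± 0.21 to 1.92 ± 0.189 FPKM without overlap (adjusted p = 0.00869 by limma) and Pecam1 did not pass (adjusted p = 0.163), and Tie1, Emcn and Vwf were at 0 in all samples. Markers of myeloid and dendritic cells summed to 59.1 to 77.2 and 67.2 to 79.9 FPKM, mostly Cst3. Of the 5 tested, 3 rose by limma, namely H2-Aa, H2-Ab1 and Cd74 of the MHC class II pathway, the last from 0.874 ± 0.1 to 4.1 ± 1.83 FPKM. Itgam and Cst3 had log2 changes of -0.03 each and did not pass. Among those too low to be tested, H2-Eb1, Lyz2, C1qb and Csf1r were higher with Lck-cre without overlap of the groups. Itgax, C1qa and Adgre1 overlapped. Markers of double-negative thymocytes summed to 18.9 to 25.6 and 22.6 to 36.1 FPKM. Of the 4 tested, 1 rose and 0 fell by limma (3 higher and 1 lower unadjusted). The 1 was Dtx1, from 4.23 ± 1.04 to 7.33 ± 2.32 FPKM with overlapping groups (adjusted p = 0.00985). Thymic epithelial markers summed to 3.48 to 5.61 and 3.99 to 5.33 FPKM, mostly Epcam. Krt8 and Aire, too low to be tested, had means of 0.0642 and 0.0297 FPKM in the controls and of 0.2 and 0.206 with Lck-cre, without overlap of the groups. Erythroid markers summed to at most 0.35 FPKM. The part of these cells in the GIMAP levels was not tested.

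Outside the family, the tested genes whose levels over the 8 samples were most like the mean of the 7 tested members were Nsun3 (Pearson r 0.992), Zfp874a (0.983), Mir7060 (0.975), Tcaim (0.973) and Gdpgp1 (0.966). All 5 were highest in control replicate 1 and lowest in Lck-cre replicate 8, and none was called. Likeness was measured on log2(FPKM + 0.5), as a description with no test. Of the 12330 genes compared, 110 had an r of at least 0.9, and the median r was 0.04.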

How the data were processed

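Total RNA was isolated with a silica-column kit, per the labels' protocols. The submitters' processing notes name HISAT and Bowtie2. Their roles and versions, the build, the annotation, the quantifier and strandedness are not stated. Per the file headers, the authors deposited FPKM, TPM and mean coverage per base for each gene. Entries sharing a gene ID (2 to 7 per table) were summed. FPKM sums were 413835 to 437426 in the controls and 437778 to 457145 with Lck-cre, so they did not overlap between the groups.

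Genes reaching 1 FPKM in 4 or more samples were fitted on log2(FPKM + 0.5) in limma 3.58.1 (R 4.3.3) on genotype with sex as a covariate, empirical Bayes with a trend, two-sided tests and Benjamini-Hochberg adjustment over all genes tested, called under 0.05. A gene could meet this minimum through 1 group. Fold ratios are of mean FPKM. The fit was tested on simulated data. Other values came from SciPy 1.17.1, NumPy 2.4.6 and pandas 2.3.3 under Python 3.11.15.

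The members and lists were chosen with earlier results of these data known. All members and all tested neighbours were named, with up to 2 called genes in each direction per list, or the 1 with the smallest p, and the 5 genes most correlated with the family mean. Markers were described by their sums, and some marker values are not reported here. Alternatives were other scalings (TPM, median of ratios, quantile), pseudocounts of 0.1 and 1, other filters, males only, omission of the sex term or of each sample, and a threshold of 0.01. Transcripts and exons came from GENCODE M21 (GRCm38) and promoters from RefSeq; protein sequences were not used here.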

Additional observations from a re-analysis of the deposited data

How the results depend on the processing

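Across 18 alternatives Gimap8 stayed lower in Lck-cre (log2 changes of -0.41 to -0.25), with adjusted p of 0.0101 to 0.127 by limma, and Gimap1 (-0.33 to -0.16), Gimap5 (-0.15 to -0.01) and Gimap6 (-0.3 to -0.13) kept their direction, as Gimap7 did (0.07 to 0.24). Gimap3 (-0.24 to 0.01) turned to 0.01 in males only and without control replicate 1 or Lck-cre replicate 5. Gimap9 (-0.05 to 0.1) turned to -0.05 with TPM and without Lck-cre replicate 6, and to -0.04 with quantile normalization. TPM sets every sample to the same sum, and FPKM sums were higher in every Lck-cre sample. With TPM the median log2 change over all genes tested thus moved from 0.012 to -0.059, and every tested member moved down with it. The cause of the other turns was not tested.

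The number of called members was 1 with FPKM, 3 with TPM, 0 with no filter, in males only and at the 0.01 threshold, and 0 to 2 with 1 sample left out. Of all genes, 3180 were called with FPKM, 1056 with no filter (which tests 28851 genes), 652 in males only, 512 at the 0.01 threshold, and 647 to 3889 with 1 sample left out. Leaving out a female makes the fit with a sex term a comparison of 3 males with 3. With the depth unknown, no counting error can be given for Gimap3 and Gimap4, whose coverage was 3.66 to 12.5. No paired analysis was possible because the replicate numbers 1 to 4 and 5 to 8 are not shared between groups.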
